A study of Mus musculus with 5 samples.

Results

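Complement is a cascade of plasma and tissue proteins that tags targets, recruits phagocytes and can lyse membranes. C1q, built from the C1qa, C1qb and C1qc chains, starts the classical pathway, C4b carries it to a C3 convertase, Cfb builds the convertase of the alternative pathway, and C3 is the protein on which all pathways meet. C3ar1 and C5ar1 are the receptors for the fragments released from C3 and C5. In tumours, tissue macrophages are a known source of C1q, and stromal cells are a known source of C3 and C4.

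These 8 genes, 6 for components (the C1q chains, C3, C4b and Cfb) and 2 for receptors, were taken by symbol from the 32245 gene symbols of 2 droplet gene-expression libraries. The anti-CTLA-4 library came from BALB/c mice aged 6 weeks that carried subcutaneous CT26 tumours, a colon carcinoma line of that strain, and received 100 µg of the anti-CTLA-4 antibody 9H10 into the peritoneum on days 5, 8 and 11 after inoculation. The control library came from mice of the same strain, age and tumour that received PBS on the same days. Both were killed on day 13. The labels call the material only tissue and do not say how many animals a library pools. There was 1 library per treatment, so no comparison below has a replicate check or a test, and every interval is a 95% interval that covers counting error only. Levels are CPM, the unique molecular identifiers (UMIs) of a gene as counts per 1000000 UMIs of the cell class.

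The anti-CTLA-4 library held 4186 barcodes with 19989467 UMIs (median 3147.5 per barcode), and the control library held 5649 barcodes with 86478313 UMIs (median 6827), with 20 barcode sequences found in both. After filtering, 3946 anti-CTLA-4 cells and 5234 control cells were clustered without the complement genes, and clusters were named from marker genes. No class name was reached for 1304 anti-CTLA-4 cells (33.0%) and 486 control cells (9.29%). Monocyte/macrophage-like cells, here called macrophage-like, were 410 anti-CTLA-4 cells (10.4%) and 1094 control cells (20.9%). All 14 of their markers had a UMI in both libraries, and 11 in the anti-CTLA-4 and 13 in the control library were in at least 20% of cells. Fibroblast-like cells were 106 (2.69%) and 137 (2.62%), with 10 of 10 markers in at least 20% of cells in both. Ptprc-negative cells, the tumour-like group, came from unnamed joint clusters with the pan-leukocyte gene Ptprc in under 5% of cells. They were 27 cells (0.684%) of the anti-CTLA-4 library and 2637 cells (50.4%) of the control library, where they held 87.2% of UMIs. Ptprc was detected in 7.41% of these anti-CTLA-4 cells and 1.02% of these control cells. RNA free in the droplets, gauged from markers of other classes, amounted to 2.04% of the library-wide level of a gene in anti-CTLA-4 macrophage-like cells and to 12.7% in control macrophage-like cells.

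The UMIs of the C1q chains lay almost wholly in macrophage-like cells in both libraries. Macrophage-like cells held 96.3% of the 5725 C1q UMIs in the anti-CTLA-4 library (interval 95.7% to 96.7%) and 97.7% of the 31720 in the control library (97.6% to 97.9%). C3ar1, the C3a receptor, had a similar source, with 93.4% of 485 UMIs in anti-CTLA-4 macrophage-like cells and 97.2% of 1446 UMIs in control macrophage-like cells. C3 was shared between fibroblast-like cells, which held 57.5% of its UMIs in the anti-CTLA-4 library and 44.8% in the control library, and macrophage-like cells, which held 35.1% and 43.8%. C4b was mainly a fibroblast transcript, at 84.4% in the anti-CTLA-4 library and 72.5% in the control library.

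Cfb, factor B, was split the other way round from C3. Macrophage-like cells held 53.0% of its UMIs in the anti-CTLA-4 library and 59.3% in the control library, while fibroblast-like cells held 40.6% and 27.6%. C5ar1, the C5a receptor, was found in macrophage-like and neutrophil-like cells. Its macrophage-like share was 59.2% in the anti-CTLA-4 library and 91.5% in the control library, and its neutrophil-like share was 37.1% and 5.47%. Neutrophil-like cells were 5.55% of anti-CTLA-4 cells and 1.59% of control cells.

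**Figure D1:**
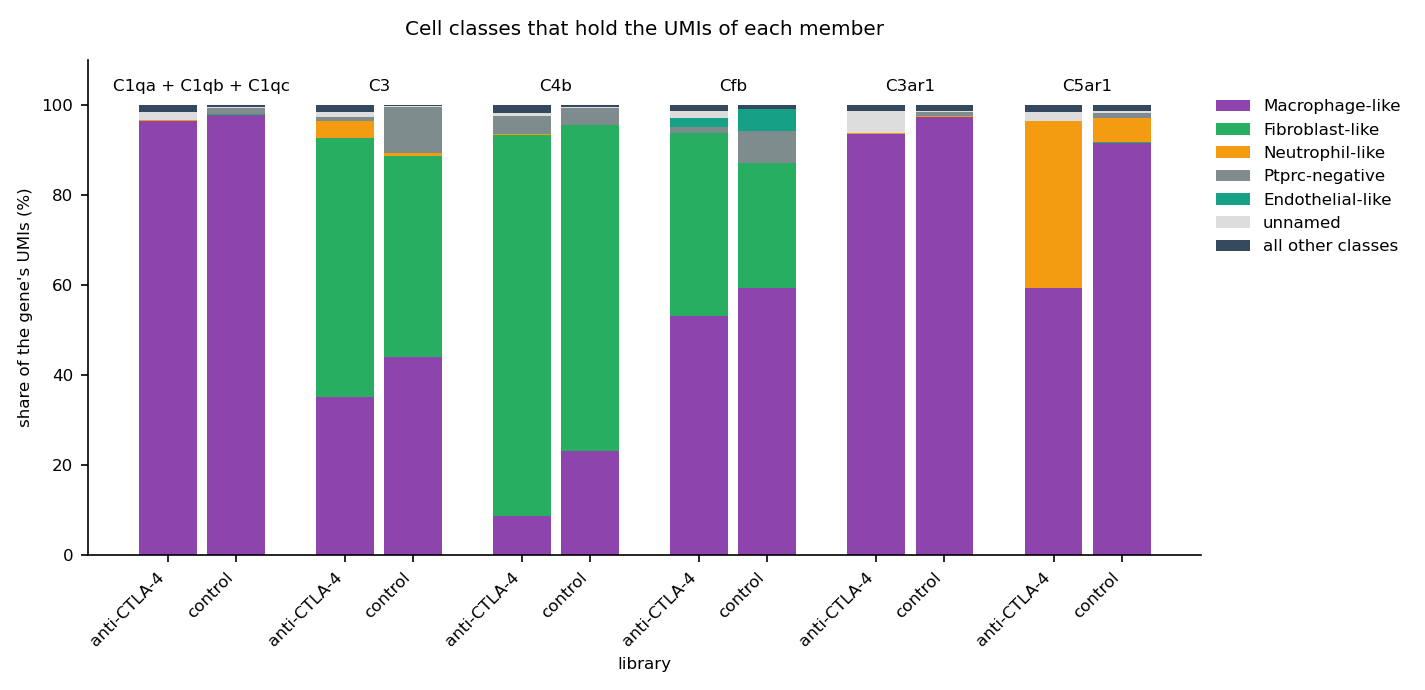
Each bar is 1 library and stacks the percentage of a member's UMIs found in each cell class, with the anti-CTLA-4 bar left of the control bar for each member. C1q and C3ar1 bars are nearly all macrophage-like, C4b bars nearly all fibroblast-like plus macrophage-like, and the C5ar1 bar has a neutrophil-like part of 37.1% in the anti-CTLA-4 library and 5.47% in the control library.

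C1qa (ENSMUSG00000036887, chr4:136895917-136898803), C1qc (ENSMUSG00000036896, chr4:136889804-136893065) and C1qb (ENSMUSG00000036905, chr4:136880129-136886187) are protein-coding genes on the minus strand that lie within 18.7 kb of each other in GENCODE's annotation of GRCm38, the build named in the submitters' processing notes. The windows around the RefSeq starts of C1qb and C1qc are shown because these chains differed together between the libraries. Each holds 250 bases before and 50 after the start, on the minus strand of RefSeq's GRCm38.p6, at chr4:136886151-136886450 for C1qb and chr4:136892865-136893164 for C1qc. Capitals mark matches to GAGGAA, the core bound by ETS factors such as PU.1, or to an NF-kB motif, GGGA and CC with any 4 bases between, on either strand.
C1qb: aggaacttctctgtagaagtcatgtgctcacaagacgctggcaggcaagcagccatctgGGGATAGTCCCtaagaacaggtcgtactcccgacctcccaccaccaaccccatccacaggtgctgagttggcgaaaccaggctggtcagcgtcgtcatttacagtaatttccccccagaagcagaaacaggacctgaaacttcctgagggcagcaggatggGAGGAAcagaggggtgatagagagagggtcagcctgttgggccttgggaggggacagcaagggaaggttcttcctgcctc
C1qc: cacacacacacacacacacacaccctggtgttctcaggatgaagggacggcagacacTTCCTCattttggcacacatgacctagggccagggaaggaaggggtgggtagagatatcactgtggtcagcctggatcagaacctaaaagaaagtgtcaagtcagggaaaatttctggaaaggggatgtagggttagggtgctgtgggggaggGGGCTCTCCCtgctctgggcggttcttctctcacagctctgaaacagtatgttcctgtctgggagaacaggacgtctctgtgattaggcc
C1qb has 1 GAGGAA, 30 bases before the start, and a pair of overlapping NF-kB matches, 1 on each strand, the farther one beginning 191 bases before the start. C1qc has the reverse complement of GAGGAA 193 bases before the start and 1 NF-kB match 40 bases before it. Of 32851 RefSeq windows of this length, 28.3% held GAGGAA and 20.7% held the NF-kB motif, so matches are common. Neither window held an interferon-stimulated response element, searched as GAAA and GAAA with any 2 bases between and found in 3.44% of windows, or TTCNNNGAA, a STAT motif, found in 8.30%.

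In macrophage-like cells the C1q level was lower in the anti-CTLA-4 library. C1qa was at 1006 CPM in anti-CTLA-4 cells and 2712 CPM in control cells, C1qb at 852 and 2201 CPM, and C1qc at 748 and 2051 CPM. The 3 chains were thus at nearly the same fraction of the control level, with ratios of 0.371 for C1qa (interval 0.354 to 0.389), 0.387 for C1qb (0.368 to 0.407) and 0.365 for C1qc (0.346 to 0.385). Summed, they were at 2606 CPM in anti-CTLA-4 cells and 6965 CPM in control cells, a ratio of 0.374 (0.364 to 0.385). The split of C1q UMIs between chains hardly differed: 38.6% C1qa, 32.7% C1qb and 28.7% C1qc in anti-CTLA-4 cells, and 38.9%, 31.6% and 29.4% in control cells. A 5′ kit counts molecules rather than fragments, so this split is not set by transcript length.

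The lower level went with a smaller share of cells with C1q. With every cell thinned to 1000 UMIs, 38.9% of 334 anti-CTLA-4 macrophage-like cells (33.7% to 44.4%) and 55.7% of 949 control macrophage-like cells (52.5% to 58.9%) had a C1q UMI. The thinning left out 76 anti-CTLA-4 cells and 145 control cells. Unthinned, the shares were 45.6% in anti-CTLA-4 cells and 59.96% in control cells, at median depths of 4064.5 and 3344 UMIs per cell. T-like cells, which should lack C1q, had thinned shares of 0.691% in the anti-CTLA-4 library and 5.47% in the control library, at median depths of 3978 and 2117 UMIs. The upper quartile of thinned C1q counts per cell was 4 UMIs in anti-CTLA-4 cells and 9 UMIs in control cells. It was taken over all macrophage-like cells, those without C1q included. Cells with 4 or more C1q UMIs were 26.3% of anti-CTLA-4 and 40.9% of control cells, and those with 1 to 3 were 12.6% and 14.9%.

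C1q UMIs were concentrated in few cells of both libraries. Of 5511 C1q UMIs in anti-CTLA-4 macrophage-like cells, 50% lay in 19 of the 187 cells that had any, and the cell with most held 403 UMIs, or 7.31%. Of 31000 in control macrophage-like cells, 50% lay in 74 of the 656 cells that had any, and the cell with most held 389 UMIs, or 1.25%. With each cell weighted equally, the ratio of anti-CTLA-4 over control was 0.508, and with free RNA subtracted in both libraries it was 0.335.

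C3, the central component (ENSMUSG00000024164, chr17:57203970-57228136, minus strand), ran the other way in the same cells. It was at 373 CPM in anti-CTLA-4 macrophage-like cells (347 to 400) and 140 CPM in control macrophage-like cells (129 to 151), a ratio of 2.66 (2.39 to 2.96). The UMIs were spread widely, with 195 anti-CTLA-4 cells and 291 control cells holding at least 1 and no cell holding more than 2.89% of them. After thinning, 24.9% of anti-CTLA-4 cells (20.3% to 29.8%) and 12.9% of control cells (10.8% to 15.2%) had a C3 UMI. In T-like cells no C3 UMI was left after thinning in 868 anti-CTLA-4 and 201 control cells, and unthinned 0.561% and 0.455% of T-like cells had one.

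The window at the C3 start is shown beside those of C1q because its level differed in the opposite direction. It lies at chr17:57228087-57228386, on the minus strand of GRCm38.p6, from RefSeq, and its capitals mark matches to the NF-kB motif on either strand.
C3: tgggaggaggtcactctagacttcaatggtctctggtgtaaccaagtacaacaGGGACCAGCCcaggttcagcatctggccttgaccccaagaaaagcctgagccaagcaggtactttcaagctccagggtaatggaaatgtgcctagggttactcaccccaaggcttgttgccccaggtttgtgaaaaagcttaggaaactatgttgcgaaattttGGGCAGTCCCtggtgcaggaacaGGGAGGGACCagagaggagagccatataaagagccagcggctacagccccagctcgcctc
The 3 matches begin 197, 33 and 10 bases before the start, the middle one on the opposite strand. GAGGAA, TTCNNNGAA and the interferon-stimulated response element were not found in this window. In the windows of C3ar1 and C5ar1 none of the 4 motifs was found, which says only that these letters are not in those 300 bases. C1qa, C4b and Cfb had no window among the 5 of 8 members matched.

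C4b, the C4 gene of the mouse (ENSMUSG00000073418, chr17:34728380-34743882, minus strand), was low in macrophage-like cells, at 13.2 CPM in the anti-CTLA-4 library from 28 UMIs and 27.4 CPM in the control library from 122 UMIs. The ratio was 0.483 (0.308 to 0.733). C4a, its near-identical neighbour, had 8 UMIs in all anti-CTLA-4 cells and 11 in all control cells, so how reads were divided between the copies is uncertain. Cfb (ENSMUSG00000090231, chr17:34856374-34862518, minus strand) was at 211 CPM in anti-CTLA-4 macrophage-like cells and 233 CPM in control macrophage-like cells, and the interval of its ratio, 0.907 (0.810 to 1.01), includes 1.

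Of the receptors, C3ar1 (ENSMUSG00000040552, chr6:122847138-122856161, minus strand) was at 214 CPM in anti-CTLA-4 macrophage-like cells and 316 CPM in control macrophage-like cells, a ratio of 0.679 (0.609 to 0.755). C5ar1 (ENSMUSG00000049130, chr7:16246743-16259540, minus strand) was at 168 and 162 CPM, a ratio of 1.04 (0.915 to 1.19). The thinned share of cells with a C3ar1 UMI was 16.5% in anti-CTLA-4 cells (12.7% to 20.9%) and 23.4% in control cells (20.7% to 26.2%). For C5ar1 it was 11.7% (8.44% to 15.6%) and 14.6% (12.5% to 17.1%), intervals that overlap.

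Counted at a difference of 1.5-fold, 1 of the 8 members was higher in anti-CTLA-4 macrophage-like cells (C3) and 4 were lower (the C1q chains and C4b). The C4b call rests on 28 anti-CTLA-4 and 122 control UMIs, and 60 of the latter lay in 1 subcluster described below. Of all 9672 genes measured in this class, 17.1% were higher and 22.5% were lower by that much. The median log2 ratio was -0.79 over the members and -0.06 over all genes.

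**Figure D2:**
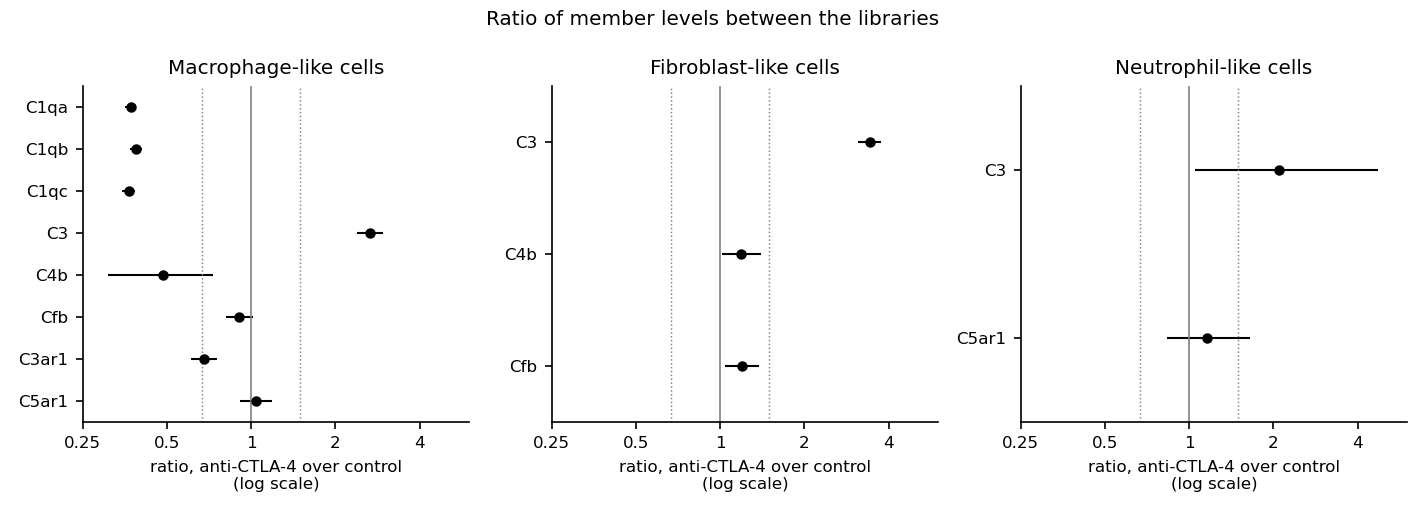
Points are ratios of a member's CPM in the anti-CTLA-4 library over the control library, on a log axis, with 95% intervals of counting error, for macrophage-like, fibroblast-like and neutrophil-like cells. The solid line marks a ratio of 1 and dotted lines mark 1.5-fold. The C1q chains lie between 0.365 and 0.387, and C3 lies above 2 in every panel, with a wide interval in neutrophil-like cells.

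Other measures differed between the macrophage-like cells of the libraries. Neutrophil markers summed to 451 CPM in anti-CTLA-4 cells and 191 CPM in control cells (9 markers, 0 and 2 of them at 0), tumour-like markers to 31.7 and 418 CPM (6 markers, 3 and 0 at 0), and fibroblast markers to 34.1 and 101.1 CPM (10 markers, none at 0). Keratinocyte markers summed to 20.8 and 223 CPM (10 markers, 2 and 1 at 0) and plasma cell markers to 476 and 272 CPM (8 markers, 1 at 0 in each). The median mitochondrial share of UMIs was 0.906% in anti-CTLA-4 cells and 1.11% in control cells, and 8 stress-response genes summed to 3126 and 3358 CPM. Their part in the member ratios was not tested.

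When the macrophage-like cells were clustered again without complement genes, C1q levels spanned a wide range. The highest level, 15009 CPM over both libraries, was in a subcluster led by Cxcl9, an interferon-induced chemokine, and Ccl8. The lowest, 69.9 CPM, was in one led by Slpi and Thbs1 with Vcan and Clec4e, genes known from monocytes. The libraries filled these subclusters unequally. A subcluster led by Mmp12, Nos2 and Arg1, enzymes made by activated macrophages, had 111 anti-CTLA-4 cells and 9 control cells, and its anti-CTLA-4 cells had a C1q level of 935 CPM. One led by Fcrls and Igfbp4, with Ms4a7, had 16 anti-CTLA-4 cells and 217 control cells, and its control cells had a C1q level of 11526 CPM. With the Mmp12 subcluster left out, which was chosen after seeing the data, the C1q ratio of anti-CTLA-4 over control macrophage-like cells was 0.443.

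Within the 5 macrophage-like subclusters that had at least 20 cells in each library, C1q was lower in anti-CTLA-4 cells every time, by very different amounts. In the subcluster led by Ccl8 and Cbr2 with Cd163 and Folr2, both known from tissue-resident macrophages, C1q was at 10840 CPM in 44 anti-CTLA-4 cells and 14951 CPM in 51 control cells, a ratio of 0.725 (0.691 to 0.760). In the one led by Mmp19, Inhba and Vegfa it was at 1997 CPM in 96 anti-CTLA-4 cells and 3987 CPM in 60 control cells, a ratio of 0.501 (0.462 to 0.543). In a shallow one led by Arl5c and Vcam1 it was at 1103 CPM in 31 cells and 8559 CPM in 112 cells, a ratio of 0.129 (0.0979 to 0.167).

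The remaining pair carried monocyte genes and little C1q. In the one led by Ifitm6, Plac8 and Ly6c2 there were 3 C1q UMIs in 22 anti-CTLA-4 cells and 187 in 74 control cells, or 14.9 and 610 CPM. In the one led by Slpi and Thbs1 there was 1 UMI in 32 anti-CTLA-4 cells and 26 in 40 control cells, or 4.24 and 173 CPM. Free RNA would give 6.07 CPM of C1q in anti-CTLA-4 and 48.9 CPM in control macrophage-like cells, so the anti-CTLA-4 level of the Slpi subcluster was not above that background, and the sizes of these gaps cannot be read closely.

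C3 was higher in anti-CTLA-4 cells in 4 of these 5 subclusters, though not always beyond counting error. The widest gap was in the Ccl8 and Cd163 subcluster, at 329 CPM in anti-CTLA-4 cells and 71.4 CPM in control cells, a ratio of 4.603 (2.89 to 7.60). In the Mmp19 subcluster C3 was at 484 and 358 CPM, a ratio of 1.35 (1.08 to 1.71). The ratio was 1.499 in the Ifitm6 and Plac8 subcluster (1.01 to 2.23), 1.39 in the Arl5c subcluster (0.597 to 2.88) and 0.813 in the Slpi and Thbs1 subcluster (0.538 to 1.23). The C3 ratio of 2.66 over the whole class therefore lay above that of all but 1 of these subclusters.

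Of the 122 C4b UMIs of control macrophage-like cells, 60 lay in the Ccl8 and Cd163 subcluster, at 179 CPM. The same subcluster had 2 C4b UMIs in anti-CTLA-4 cells, or 8.22 CPM. C3ar1 was lower in anti-CTLA-4 cells in all 5 subclusters, with ratios of 0.528 in the Mmp19, 0.208 in the Arl5c, 0.645 in the Ifitm6, 0.701 in the Ccl8 and 0.494 in the Slpi subcluster. C5ar1 had its highest level in the Slpi and Thbs1 subcluster, at 433 CPM in anti-CTLA-4 cells and 432 CPM in control cells, a ratio of 1.002 (0.727 to 1.39). Cfb varied in both directions, with a ratio of 3.23 in the Arl5c subcluster (2.00 to 5.10) and 0.536 in the Ifitm6 subcluster (0.364 to 0.774).

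**Figure D3:**
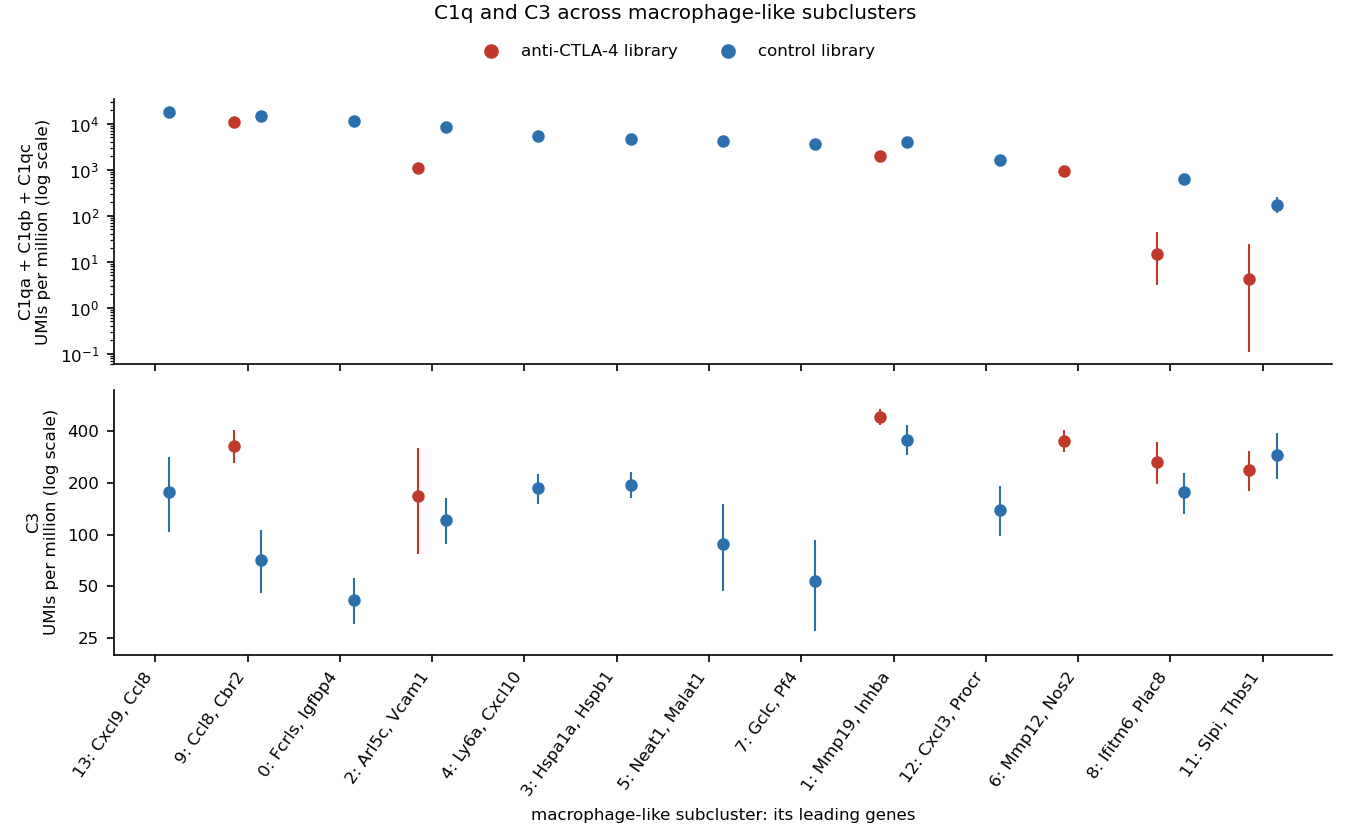
Points are the CPM of the summed C1q chains (upper panel) and of C3 (lower panel) in each macrophage-like subcluster, ordered from high to low C1q over the points shown, on log axes with 95% intervals of counting error. A library with under 20 cells in a subcluster has no point there. In the 5 subclusters with both points the anti-CTLA-4 point lies lower for C1q, and for C3 it lies higher in all but the one led by Slpi and Thbs1.

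The relation between C1q and C3 from cell to cell also differed between the libraries. Among macrophage-like cells with no C1q UMI in 1000, C3 was at 305 CPM in 204 anti-CTLA-4 cells (276 to 336) and 166 CPM in 420 control cells (147 to 186). Among those with 4 or more C1q UMIs, it was at 567 CPM in 88 anti-CTLA-4 cells (502 to 637) and 129 CPM in 388 control cells (114 to 145). C3 was thus higher in C1q-rich than in C1q-negative cells of the anti-CTLA-4 library and lower in those of the control library. Median depth was 4541.5 UMIs in C1q-rich and 6387.5 in C1q-negative anti-CTLA-4 cells, and 4997 and 3654.5 in control cells, and its part was not tested.

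C4b was at 14.2 CPM in C1q-rich (5.70 to 29.2) and 14.7 CPM in C1q-negative anti-CTLA-4 cells (9.00 to 22.8), from 7 and 20 UMIs, and at 48.3 CPM in C1q-rich (39.6 to 58.5) and 4.75 CPM in C1q-negative control cells (2.05 to 9.36). C3ar1 was at 257 CPM in C1q-rich and 204 CPM in C1q-negative anti-CTLA-4 cells, and at 340 and 291 CPM in control cells, with intervals that overlap in both. C5ar1 ran the other way, at 148 CPM in C1q-rich and 196 CPM in C1q-negative anti-CTLA-4 cells, and at 139 and 197 CPM in control cells, where the intervals are separate. Cfb was at 166 CPM in C1q-rich and 224 CPM in C1q-negative anti-CTLA-4 cells, and at 218 and 252 CPM in control cells, again with overlapping intervals.

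**Figure D4:**
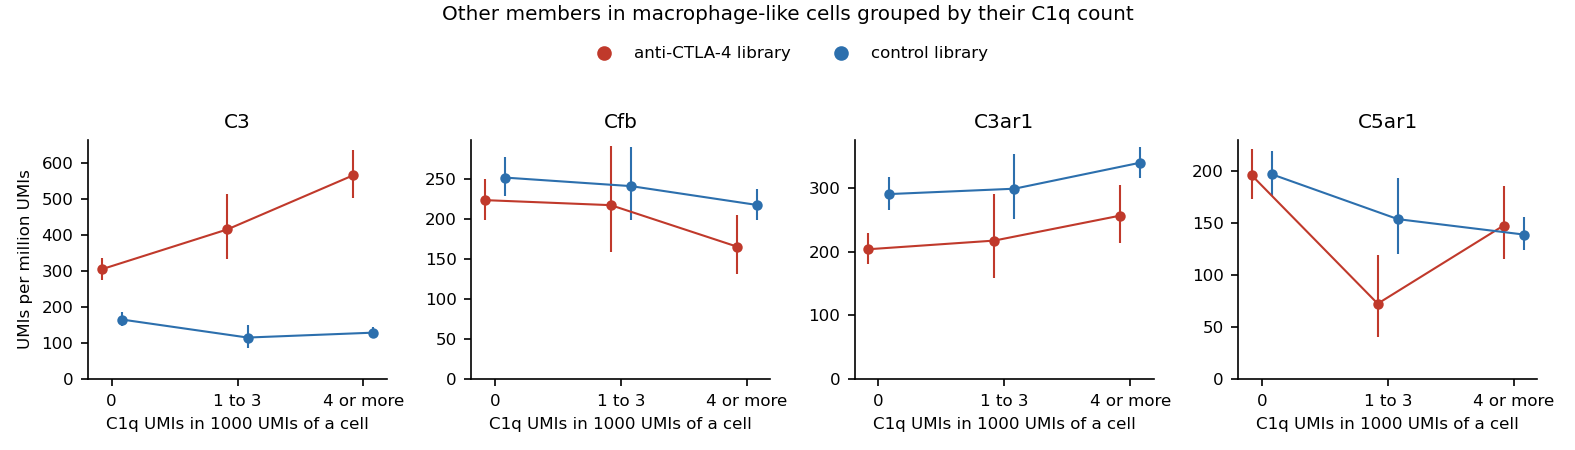
Macrophage-like cells were grouped by their number of C1q UMIs after thinning to 1000 UMIs per cell (horizontal axis), and points give the CPM of C3, Cfb, C3ar1 and C5ar1 from the full counts of each group, with 95% intervals of counting error. The C3 line climbs to 567 CPM in the anti-CTLA-4 library and ends at 129 CPM in the control library. The middle group has 42 anti-CTLA-4 cells and 141 control cells.

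In fibroblast-like cells C3 was the member that differed most. It was at 1817 CPM in anti-CTLA-4 fibroblast-like cells, from 1289 UMIs, and 532 CPM in control fibroblast-like cells, from 636 UMIs, a ratio of 3.42 (3.10 to 3.76). C4b was at 382 and 321 CPM, a ratio of 1.19 (1.01 to 1.39), and Cfb at 482 and 403 CPM, a ratio of 1.20 (1.04 to 1.38). Of the 3 members measured in this class, 1 was higher by 1.5-fold and none was lower, while 23.8% of all 7582 genes measured there were higher and 17.3% were lower. The class is small, and 50% of the C3 UMIs lay in 7 anti-CTLA-4 cells and in 8 control cells. Without the cell with most C3 UMIs in each library the ratio was 3.38 (3.06 to 3.75).

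C3 was higher in anti-CTLA-4 cells in each fibroblast-like subcluster with at least 5 cells in each library and at least 20 C3 UMIs. This minimum acts on C3 itself. It left out the Wif1 subcluster described below, where C3 was at 42.1 CPM in anti-CTLA-4 cells (6 UMIs) and 38.2 CPM in control cells (2 UMIs). The Ccl19 subcluster passed it through its anti-CTLA-4 cells. C3 was at 4762 CPM in 18 anti-CTLA-4 cells and 1604 CPM in 9 control cells of one led by Fgl2, Csf1 and Ptx3, and at 3551 CPM in 7 cells and 1358 CPM in 15 cells of one led by Pi16, a marker of universal fibroblasts. It was at 1230 and 538 CPM in one led by Cyp2f2 and Coch, and at 721 and 367 CPM in one led by Cxcl3 and Serpinb2. The ratios of these subclusters lay between 1.97 and 2.97, below the class ratio of 3.42. The libraries filled the subclusters unequally. One led by Cck and Fibin had 1 anti-CTLA-4 cell and 24 control cells, with C3 at 64.4 CPM in the control cells. The part of this makeup in the class ratio was not tested. In a further one led by Ccl19 there were 170 C3 UMIs in 20 anti-CTLA-4 cells and 4 in 7 control cells, a ratio of 9.04 with a wide interval (3.47 to 33.6).

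C4b and Cfb differed less evenly among these fibroblasts. The C4b ratio was 1.71 in the Fgl2 subcluster (1.18 to 2.54), 1.36 in the Pi16 subcluster (1.01 to 1.82) and 1.08 in the Cxcl3 subcluster (0.772 to 1.48). The Cfb ratio was 3.56 in the Cyp2f2 subcluster (2.21 to 5.93), 1.60 in the Cxcl3 subcluster (1.27 to 2.00) and 0.802 in the Fgl2 subcluster (0.535 to 1.21). A subcluster led by Wif1 and Reln, with 28 anti-CTLA-4 and 21 control cells, passed as fibroblast-like with little of any member: its C3 level was 42.1 CPM in anti-CTLA-4 cells and 38.2 CPM in control cells. Without it, an exclusion chosen after seeing the data, the C3 ratio of the class was 4.08. Macrophage markers in fibroblast-like cells summed to 533 CPM in the anti-CTLA-4 library and 336 CPM in the control library (14 markers, 5 and 1 at 0), tumour-like markers to 297 and 1578 CPM (6 markers, 2 at 0 in each), plasma cell markers to 433 and 928 CPM (8 markers, 2 and 4 at 0) and keratinocyte markers to 40.9 and 129 CPM (10 markers, 6 and 2 at 0). Stress-response genes summed to 7335 CPM in anti-CTLA-4 and 4842 CPM in control fibroblast-like cells, the median mitochondrial share was 1.81% and 1.19%, and the median depth was 4577.5 and 6148 UMIs. Their part in the ratios was not tested.

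Neutrophil-like cells carried C5ar1 and C3 and little else of the group. C5ar1 was at 576 CPM in 219 anti-CTLA-4 cells (503 to 657) and 495 CPM in 83 control cells (359 to 667), a ratio of 1.16 (0.835 to 1.65). C3 was at 217 CPM in anti-CTLA-4 cells from 84 UMIs and 104 CPM in control cells from 9 UMIs, a ratio of 2.09 (1.05 to 4.73). With at least 500 genes per cell this C3 ratio was 1.42 (0.652 to 3.68), under the 1.5-fold mark, and with edgeR's TMM factors its interval ran from 0.9998 to 4.50. Cfb had 1 UMI in each library. Median depth was 1658 UMIs in anti-CTLA-4 and 933 UMIs in control neutrophil-like cells, and the free-RNA gauge was 4.88% and 23.7%. Macrophage markers summed there to 7057 CPM in anti-CTLA-4 and 5231 CPM in control cells (14 markers, 3 at 0 in each), tumour-like markers to 7.75 and 1244 CPM (6 markers, 3 and 1 at 0), keratinocyte markers to 67.1 and 772 CPM (10 markers, 2 at 0 in each), fibroblast markers to 85.2 and 380 CPM (10 markers, 6 and 2 at 0) and stress-response genes to 4103 and 6349 CPM. Their part in these ratios was not tested.

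**Figure D5:**
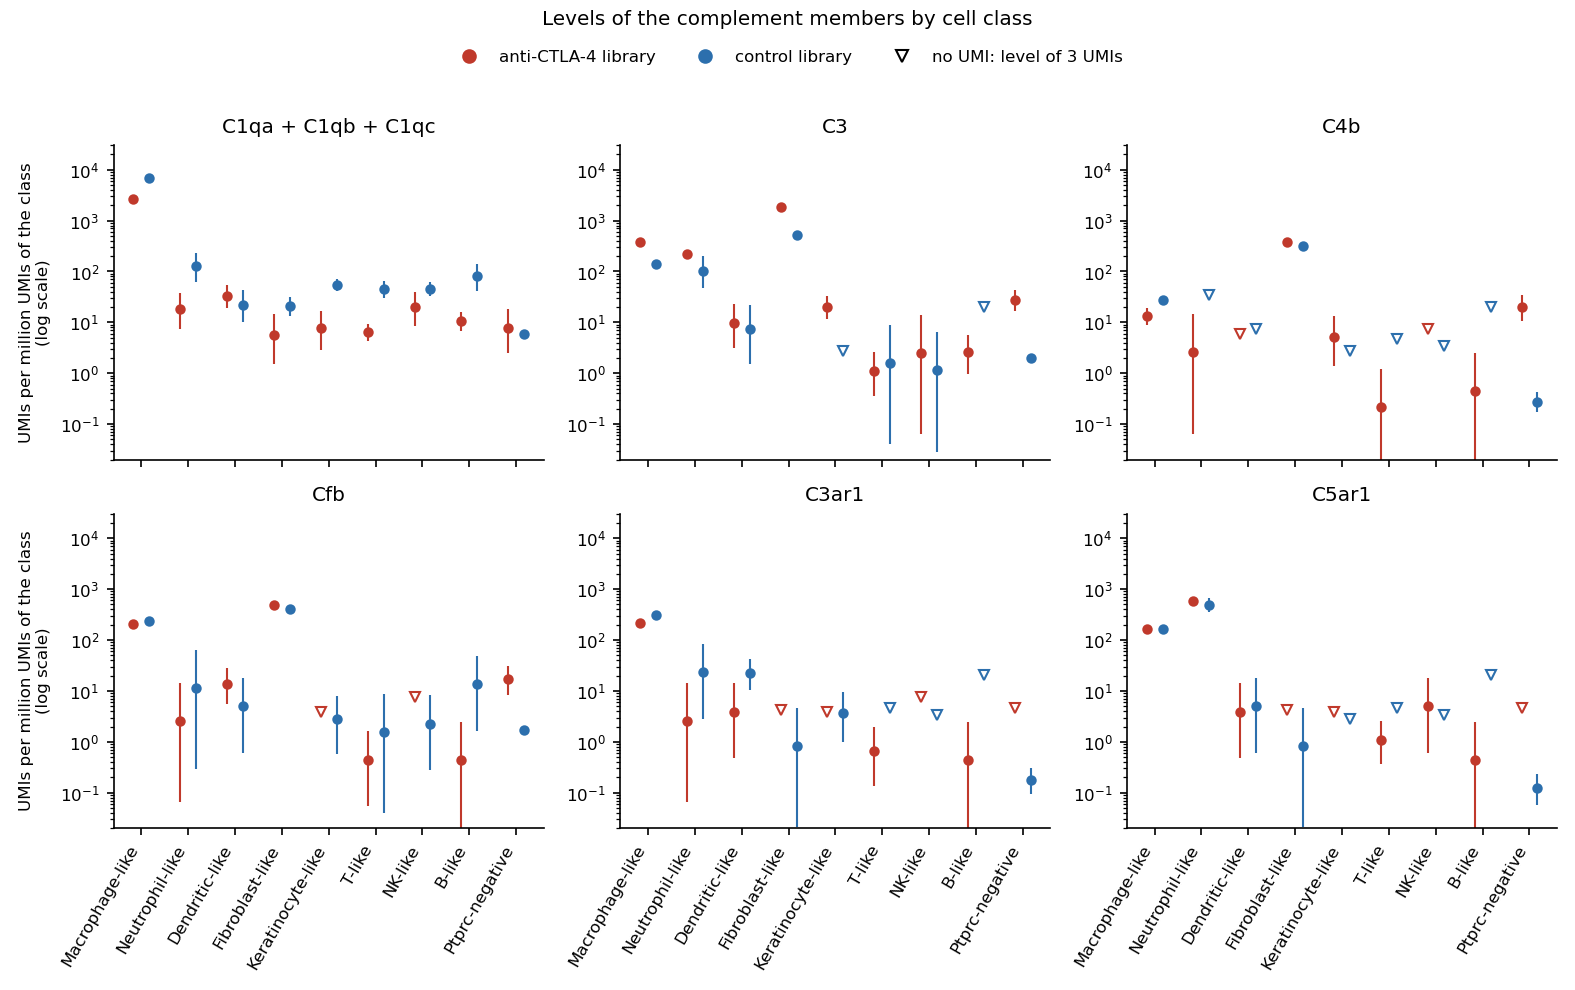
Each panel gives the CPM of a member, or of the summed C1q chains, in 9 cell classes on a log axis, with the anti-CTLA-4 point left of the control point and 95% intervals of counting error. Open triangles stand for no UMI and are drawn at the level of 3 UMIs. C1q stands at 2606 CPM and 6965 CPM in macrophage-like cells and at no more than 127 CPM in the other classes.

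Most members had few UMIs outside these classes. An exception was the receptors in 17 mast/basophil-like cells, a class found in the control library alone, with C3ar1 at 249.6 CPM (114 to 474, from 9 UMIs) and C5ar1 at 277 CPM (133 to 510, from 10 UMIs), against free-RNA levels of 0.685 and 0.372 CPM. Of the 9 markers of the mast/basophil-like class, only Mcpt8, Gata2 and Cd200r3 were in at least 20% of its cells. Kit, Mcpt4 and Tpsb2 were at 0. C1q was at 6.43 CPM in anti-CTLA-4 T-like cells and 45.7 CPM in control T-like cells. Of the members only C1qa was measured in T-like cells (13 UMIs in each library) and in NK-like cells (2 and 18 UMIs). It was lower by 1.5-fold in both, against 15.1% and 18.1% of all genes in those classes. In NK-like cells the interval of its ratio, 0.242 (0.0273 to 1.01), includes 1. Free RNA would give 2.32 and 21.5 CPM of C1qa in T-like cells, where 2.88 and 20.5 CPM were seen. In NK-like cells it would give 2.97 and 13.4 CPM, where 4.96 and 20.5 CPM were seen. In barcodes with an assembled TCR beta chain C1q was at 8.44 CPM (1480 anti-CTLA-4 cells) and 40.0 CPM (271 control cells). Control Ptprc-negative cells had 5.87 CPM of C1q, and its chains stood there at 37.9% C1qa, 34.8% C1qb and 27.3% C1qc, close to the macrophage-like split. With free RNA subtracted, C1q was at 0 in control T-like cells, and C1q, C3 and Cfb were at 0 in control Ptprc-negative cells. The gauge foresaw 55.3 CPM of C1q in the former, and 129 CPM of C1q, 5.78 CPM of C3 and 7.10 CPM of Cfb in the latter. Each lies above the level seen and negative results were set to 0, so these 0 values follow from the gauge. It overstates free RNA in the Ptprc-negative cells, and their own levels cannot be read from it.

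The tumour-like group of the anti-CTLA-4 library had only 27 cells and differed from that of the control library in its own markers. Crabp1 was at 1170 CPM in anti-CTLA-4 and 4952 CPM in control Ptprc-negative cells, Areg at 23.1 and 421 CPM, Csrp2 at 54.0 and 305 CPM and Krt20 at 57.0 and 328 CPM. Krt8, at 20.04 and 0.181 CPM, and Krt18, at 37.0 and 0.111 CPM, were each detected in 3.70% of these 27 cells. The C1 proteases C1ra, at 95.6 and 7.14 CPM, and C1s1, at 129.5 and 6.17 CPM, were also higher there, and the part of this makeup in the member levels was not tested. C3 was at 27.8 CPM in anti-CTLA-4 Ptprc-negative cells (18 UMIs in 5 cells) and 2.03 CPM in control Ptprc-negative cells (146 UMIs in 93 of 2637 cells). The ratio was 13.7 (7.87 to 22.4), with 9 of the 18 anti-CTLA-4 UMIs in 1 cell. C4b was at 20.04 CPM (13 UMIs in 6 cells) and 0.278 CPM (20 UMIs in 19 cells), and Cfb at 17.0 and 1.73 CPM. Endothelial-like cells carried Cfb, at 143 CPM in 11 anti-CTLA-4 cells and 339 CPM in 28 control cells, with 8 of the 16 anti-CTLA-4 UMIs in 1 cell. Keratinocyte-like cells had 16 C3 UMIs in the anti-CTLA-4 library (20.4 CPM), 10 of them in 1 cell, and none in the control library, where 3 UMIs would be 2.78 CPM.

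Over whole libraries the levels also follow the share of UMIs that each class held, and they are given for that reason. Macrophage-like cells held 11.0% of UMIs in the anti-CTLA-4 library and 5.40% in the control library, though they were 10.4% and 20.9% of cells. Summed C1q was at 298 CPM of all used cells in the anti-CTLA-4 library and 385 CPM in the control library, a ratio of 0.775, against 0.374 within macrophage-like cells. C3 was at 117 and 17.2 CPM, a ratio of 6.77, C5ar1 at 31.3 and 9.54 CPM, a ratio of 3.28, and C3ar1 at 25.3 and 17.5 CPM, a ratio of 1.44. C3ar1 thus stood above the control library over all cells and below it within macrophage-like cells. The ratios for C4b and Cfb were 2.599 and 2.07.

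A wider list of 44 other complement genes gives the surroundings of the members. In macrophage-like cells 14 had at least 20 UMIs over both libraries, of which 4 were at least 1.5-fold higher and 3 lower in anti-CTLA-4 cells, against the 17.1% and 22.5% of all genes, with a median log2 ratio of -0.21 against -0.06. For these calls 0.5 UMI was added to each library. The alternative-pathway stabiliser properdin, Cfp, was at 453 CPM in anti-CTLA-4 cells and 566 CPM in control cells, a ratio of 0.8003, and the CR3 chains Itgam and Itgb2 had ratios of 0.807 and 1.65. Ficolin A, Fcna, a lectin-pathway recognition protein, was at 16.1 and 63.8 CPM, a ratio of 0.252 (0.171 to 0.360). C1qbp, a mitochondrial protein named for C1q binding, was at 43.5 and 133 CPM, a ratio of 0.328. Control Ptprc-negative cells held 94.9% of control C1qbp UMIs, and free RNA was not subtracted from this ratio. Clu, a fluid-phase inhibitor, had 1 and 31 UMIs, while control Ptprc-negative cells held 97.6% of all control Clu UMIs. C6, of the lytic pore, and C1ra, a C1 protease, both named after their values were seen, had ratios of 2.11 and, before that addition, 1.49. These rest on few UMIs, 15 in each library for C6, and 22 in anti-CTLA-4 and 31 in control cells for C1ra.

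In fibroblast-like cells 14 of the wider list were measured, with 5 higher and 2 lower against 23.8% and 17.3% of all genes, and a median log2 ratio of 0.25 against 0.07. The C1 proteases were among those higher. C1ra was at 510 CPM in anti-CTLA-4 cells and 298 CPM in control cells, a ratio of 1.71 (1.48 to 1.99), and C1s1 at 393 and 228 CPM, a ratio of 1.72 (1.45 to 2.04). Their paralogs C1rb and C1s2, whose reads may be split with them, had ratios of 2.05 and 1.84. Cd59a, which blocks the lytic pore, had 21 and 9 UMIs, a ratio of 3.93 (1.73 to 9.76). The C1 inhibitor Serping1 was at 2210 and 1885 CPM, a ratio of 1.17. Clu was lower at 7.05 and 35.9 CPM, and Masp1, a lectin-pathway protease, at 33.8 and 76.1 CPM, a ratio of 0.445. Control Ptprc-negative cells held 97.6% of control Clu UMIs and 95.3% of control Masp1 UMIs, and free RNA was not subtracted here. The ratios named for C1rb, C1s2 and Masp1 were chosen after their values were seen.

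In T-like and NK-like cells 6 wider-list genes were measured in each. Those with most UMIs were Itgb2, with ratios of 1.17 and 1.39, C1qbp, with 0.666 and 0.801, and Cr1l, a regulator of C3 convertases, with 1.42 and 1.02. Control Ptprc-negative cells held 94.9% of control C1qbp UMIs. The free-RNA gauge was 1.99% in anti-CTLA-4 and 14.4% in control T-like cells, and 2.55% and 8.95% in NK-like cells. Free RNA was not subtracted from these ratios, so the C1qbp ratios cannot be read closely. In T-like cells Cd93 had 9 UMIs in the anti-CTLA-4 library and 13 in the control library, a ratio of 0.0974, and Itgax, a chain of CR4, had 50 and 1. In NK-like cells Clu had 0 and 30 UMIs. Control Ptprc-negative cells held 97.6% of control Clu UMIs, so this gap cannot be read closely either. Of the T-like genes 1 was higher and 2 were lower, against 14.6% and 15.1% of all genes there, and of the NK-like genes 2 were higher and 1 lower, against 21.4% and 18.1%.

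The genes whose levels ran most like each member over 18 class-by-library units with at least 50 cells were found for each member. For summed C1q these were Msr1, Pf4, Clec4a3, Trem2 and Ms4a7, with Pearson correlations of log2 levels between 0.956 and 0.970. C3ar1 went with Clec4a3, Fcgr1, Folr2, Trem2 and Ms4a4a (0.970 to 0.988), and C5ar1 with Clec4d, Clec4e, Tlr13, Mmp8 and Hk3 (0.983 to 0.993). C4b went with Rcn3, Emilin1, Igf1, Ctsk and Zfp469 (0.979 to 0.9905). C3 had Cd302, Lhfpl2, Dram1, Fam114a1 and Timp2 (0.894 to 0.916), and Cfb had Cd302, Vcan, Cox4i2, Itga9 and Ifi204 (0.934 to 0.977). The units share 2 libraries and their depths, so these values are descriptions.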

How the data were processed

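Raw UMI counts, 1 value for each gene in each barcode, were deposited for both expression libraries. Per the labels' protocols, suspensions from a tumour dissociation kit were run with the 5′ immune profiling kit, version 1.1. The submitters' processing notes list Cell Ranger 5.0.0 with mm10 and GRCm38. The annotation release was not given in the sources used here. TCR tables, as deposited, give UMI counts per contig and served only to pick barcodes with a beta chain. The BCR table was not used here.

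The members and lists were chosen with earlier results of these data known. A barcode was kept if it had 200 or more genes and no more than 15% of UMIs from mitochondrial genes. Scrublet called 1 anti-CTLA-4 and 0 control cells, which is too few to have worked, so the highest scores at the expected rate were removed instead (137 of 4083 and 248 of 5482). Both libraries were clustered together (scanpy 1.11.5, leidenalg 0.10.2, 2000 variable genes without complement genes, 30 components, 15 neighbours, resolution 1.0). Clusters were named from marker lists (3 or more markers in 20% of cells, averaging a log2 fold of 1.0 or higher). Macrophage and stromal clusters were clustered and named again, a step added after seeing the data because they mixed classes. Unnamed cells (1304 anti-CTLA-4 and 486 control) entered no class.

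UMIs were summed per class. Ratios of the CPM have exact conditional binomial intervals, levels exact Poisson and shares Clopper-Pearson ones (scipy 1.17.1), all for counting error only. Background counts use the 4 classes with at least 100 cells in each library and genes with at least 20 UMIs. Free RNA was gauged as the median, over other classes' markers, of the class level over the library level. Named were all 8 members, per class the 3 wider-list genes with most UMIs and the 3 whose interval bound lay farthest from 1, and the 5 genes most alike, from log2 CPM plus 20. Promoter windows came from RefSeq for 5 of 8 members. edgeR 4.0.16 was used only for TMM factors. Intervals were tried on simulated counts drawn as independent UMIs, which is what the intervals assume. That trial cannot say whether they hold for UMIs concentrated in few cells.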

Additional observations from a re-analysis of the deposited data

How the results depend on the processing

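No paired analysis was possible because each treatment has 1 expression library. The C1q ratio in macrophage-like cells, 0.374 as reported, stayed below 1 under 15 alternatives, between 0.331 and 0.508. It was 0.357 with at least 500 genes per cell, 0.331 with a 10% mitochondrial limit, 0.346 with cells thinned to 2000 UMIs before clustering, 0.334 with complement genes in the clustering, 0.392 with doublets kept, 0.391 with TMM factors, 0.361 without mitochondrial and ribosomal protein genes in the total and 0.335 with free RNA subtracted. Alternatives added after seeing the data gave 0.347 in cells with at least 3000 UMIs, 0.443 without the Mmp12 subcluster, 0.353 without the cell with most UMIs in each library and 0.508 with each cell weighted equally. The C3 ratio in macrophage-like cells ranged from 2.31 to 2.78. In fibroblast-like cells the C3 ratio of 3.42 was 3.08 with median-of-ratios factors, 3.09 with free RNA subtracted, 4.21 at resolution 2.0, 4.08 without the Wif1 subcluster and 2.71 with cells weighted equally. C4b was 1.42 at resolution 2.0, and Cfb was 1.49 at resolution 2.0, 1.43 without the Wif1 subcluster and 0.872 with cells weighted equally, which places it on the other side of 1. Median-of-ratios factors shifted all genes by -0.15 (log2) in fibroblast-like and 0.57 in neutrophil-like cells, where C5ar1 ranged from 0.934 to 1.73, and leaving out mitochondrial and ribosomal genes shifted neutrophil-like cells by -0.12.

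The macrophage-like share of C1q UMIs was 96.9% in the anti-CTLA-4 library with cells thinned before clustering and with complement genes in the clustering. In the control library it was 97.9% with at least 500 genes, 97.3% with thinned cells, 97.4% with complement genes or a 10% mitochondrial limit and 96.7% with doublets kept. The share of macrophage-like cells with C1q was 45.6% in anti-CTLA-4 and 59.96% in control cells unthinned. The lowest subcluster C1q level was 108 CPM with doublets kept, 46.5 CPM at the 10% limit and 132 CPM at resolution 2.0. C1q in control Ptprc-negative cells was 11.2 CPM with doublets kept, 6.56 CPM at resolution 0.5 and 6.53 CPM at resolution 2.0. With free RNA subtracted it was 0, as were C3 and Cfb there and C1q in control T-like cells. In each of these cases the gauge foresaw more than was seen, so the 0 follows from the gauge. The wider-list count in macrophage-like cells, 7, was 4 at a minimum of 100 UMIs and 14 with no minimum. The library-wide C1q ratio was 0.723 at the 10% limit. No member ratio past 1.5-fold in macrophage-, fibroblast- or neutrophil-like cells changed direction, but C3 in neutrophil-like cells ranged from 1.42, with at least 500 genes per cell, to 3.11. Ratios of subclusters, wider-list genes and other classes were not recomputed. With 1 library per treatment, differences between animals or preparations and the treatment cannot be told apart.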
